A study of Mus musculus with 18 samples.

Results

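The collagen genes of the mouse were examined as binding targets of Pitx1 and Tbx5 in the early limb bud. They were taken as every protein-coding gene whose symbol has the form of a collagen chain, a number followed by a and a second number after Col, which gave 44 of the 21883 protein-coding genes in RefSeq's annotation of GRCm38.p6, which is the mm10 build. Binding sites were read from chromatin immunoprecipitation followed by sequencing (ChIP-seq), in which DNA bound by a protein is pulled down with an antibody and sequenced. Pitx1 had been mapped in hindlimb buds at stage e11.5 and Tbx5 in forelimb buds at stage e10.5 (days after conception), both in wild-type embryos of the CD1 strain, with a homemade antibody each and paired-end reads. The other samples of the series, histone marks and inputs, are not analysed here. Each factor has 1 sample, so the values carry no error between replicates, and limb, stage, factor and antibody differ together and cannot be told apart.

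Each site is given by its summit, the highest point of the peak, and by the authors' score, taken here to be −log10 of a q-value. Scores depend on a sequencing depth that is unknown here, so they are ranked only within a list. Every summit went to the closest protein-coding gene up to 100 kb away, with no distance for summits inside a gene. Of 54941 Pitx1 summits, 280 fell to collagen genes, and of 10273 Tbx5 summits, 49. The bases closer to a gene than to any other, up to that limit, form its domain, and counts are also given per 100 kb of domain because a long domain collects more summits.

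Collagens are the main fibrous proteins of the extracellular matrix, built from chains wound into a rod-like helix. Fibril-forming types such as I, III and V give connective tissue its strength. Types II, IX, X and XI are characteristic of cartilage, which replaces the condensed mesenchyme of the limb bud as the skeleton is laid down. Type IV and its companions form the sheets of basement membranes under epithelia and around vessels. The remaining types include beaded filaments, chains that decorate fibrils and chains anchored in the cell membrane. Pitx1 is a homeodomain factor that marks the hindlimb, and Tbx5 a T-box factor needed for the forelimb.

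Start sites with sequence were found in the RefSeq promoter table for 35 of the 44 genes, in 38 windows of 300 bases that run from 250 before to 50 after the start. The 9 genes not matched were Col1a1, Col2a1, Col4a3, Col5a2, Col9a3, Col12a1, Col14a1, Col22a1 and Col26a1. A Pitx1 summit lay in 7 of the 38 windows (18.4%), against 8.96% of the 32851 windows of all genes. No collagen window held a Tbx5 summit, against 1.18% of all windows. The 250 bases before the start are shown for the 4 collagen starts whose windows held the highest Pitx1 scores, so that the letters can be read beside the position of the summit. They are printed 5′ to 3′ on the strand of the gene (the plus strand for all 4), from RefSeq on GRCm38.p6, with capitals marking AGGTGT or its reverse complement ACACCT, the core letters of a T-box site.

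Col11a1, chr3:114030290-114030539, Pitx1 summit at base 40 (score 27.3):
Col11a1: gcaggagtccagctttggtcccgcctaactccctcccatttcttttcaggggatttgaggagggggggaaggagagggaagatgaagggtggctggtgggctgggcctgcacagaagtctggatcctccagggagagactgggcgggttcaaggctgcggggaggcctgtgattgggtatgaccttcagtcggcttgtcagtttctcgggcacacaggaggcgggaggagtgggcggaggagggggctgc
Col1a2, chr6:4505368-4505617, Pitx1 summit at base 35 (score 18.9):
Col1a2: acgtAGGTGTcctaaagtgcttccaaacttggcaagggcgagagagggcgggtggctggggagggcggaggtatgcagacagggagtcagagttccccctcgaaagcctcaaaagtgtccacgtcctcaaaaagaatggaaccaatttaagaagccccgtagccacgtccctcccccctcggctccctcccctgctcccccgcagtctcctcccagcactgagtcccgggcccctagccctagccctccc
Col24a1, chr3:145292222-145292471, Pitx1 summit at base 243 (score 9.54):
Col24a1: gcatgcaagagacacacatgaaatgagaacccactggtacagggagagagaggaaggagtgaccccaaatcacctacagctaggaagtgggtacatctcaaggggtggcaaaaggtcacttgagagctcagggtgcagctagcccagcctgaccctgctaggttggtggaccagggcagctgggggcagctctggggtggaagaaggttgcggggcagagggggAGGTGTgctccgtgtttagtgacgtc
Col9a1 internal start, chr1:24194953-24195202, Pitx1 summit at base 191 (score 7.67):
Col9a1: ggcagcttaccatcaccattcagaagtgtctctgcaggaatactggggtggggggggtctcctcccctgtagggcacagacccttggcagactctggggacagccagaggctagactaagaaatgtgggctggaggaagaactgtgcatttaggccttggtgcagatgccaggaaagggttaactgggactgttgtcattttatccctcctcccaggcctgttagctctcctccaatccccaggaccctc

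The 3 further windows with a Pitx1 summit belonged to Col3a1 (score 5.92), Col13a1 (5.37) and Col11a2 (4.84). The letters TAATCC, the core of a Pitx1 site, and their reverse complement GGATTA were in none of the 38 collagen windows, against 7.06% of all windows. AGGTGT or ACACCT was in 3 of them (7.89%), those of Col1a2, Col24a1 and Col6a4, against 13.7% of all windows. A match describes letters and no binding. The shares of matches and of summits rest on only 38 collagen windows, and their differences from all windows were not tested.

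Nearly all collagen genes held a Pitx1 site and a smaller part a Tbx5 site. Pitx1 summits were assigned to 40 of the 44, where the share among all protein-coding genes was 54.5%. Tbx5 summits were assigned to 18, against 18.7% of all genes. All 18 also held Pitx1, so both factors were at 18 collagen genes, against 16.8% of all genes, and no collagen gene held Tbx5 alone. This was also the usual case outside collagens. Of the 4084 genes with Tbx5 among all 21883, 3671 also held Pitx1 and only 413 held Tbx5 alone. The 4 genes with neither were Col6a5, Col7a1, Col10a1 and Col20a1. These are a beaded filament chain, the anchoring collagen of skin, the collagen of hypertrophic cartilage and a fibril-associated collagen. The domain of Col10a1 was only 7.105 kb long. Without the rule of the closest gene, all 44 collagen genes had a Pitx1 summit within 100 kb. The share of all genes under that wider rule was not computed, so the count cannot be read as a trait of collagens.

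Collagen genes are long and so have long domains. The median collagen domain was 152.1 kb, against 45.1 kb for all genes. Among the 22 collagen genes whose domains lay between the collagen quartiles of 67.7 and 239.2 kb, 95.5% held Pitx1 and 45.5% held Tbx5, and among all 6730 genes in that range the shares were 70.5% and 29.6%. Per length, collagen genes held 3.68 Pitx1 summits per 100 kb, against 2.35 over all genes, a ratio of 1.57. For Tbx5 the values were 0.644 and 0.415, a ratio of 1.55. The median over genes of the Pitx1 density was 2.69 per 100 kb for collagens and 0.962 for all genes, and 25 of the 44 collagen genes lay above the pooled density of all genes. For Tbx5 15 lay above it and the median was 0 in both.

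The sites were spread unevenly. Col25a1, Col23a1 and Col1a2 held 35.7% of the collagen Pitx1 summits, and Col25a1, Col23a1 and Col26a1 held 49.0% of the Tbx5 summits. Leaving out Col25a1, which held the most of both, lowered the density ratios to 1.35 for Pitx1 and 1.29 for Tbx5. At the other end, 11 genes held a single Pitx1 summit and 8 a single Tbx5 summit. Across the 44 genes the numbers of Pitx1 and Tbx5 summits had a Spearman correlation of 0.734, and the densities per 100 kb one of 0.583. The genes share both libraries and differ in domain length, whose own correlation with the counts was 0.649 for Pitx1 and 0.483 for Tbx5.

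**Figure D1:**
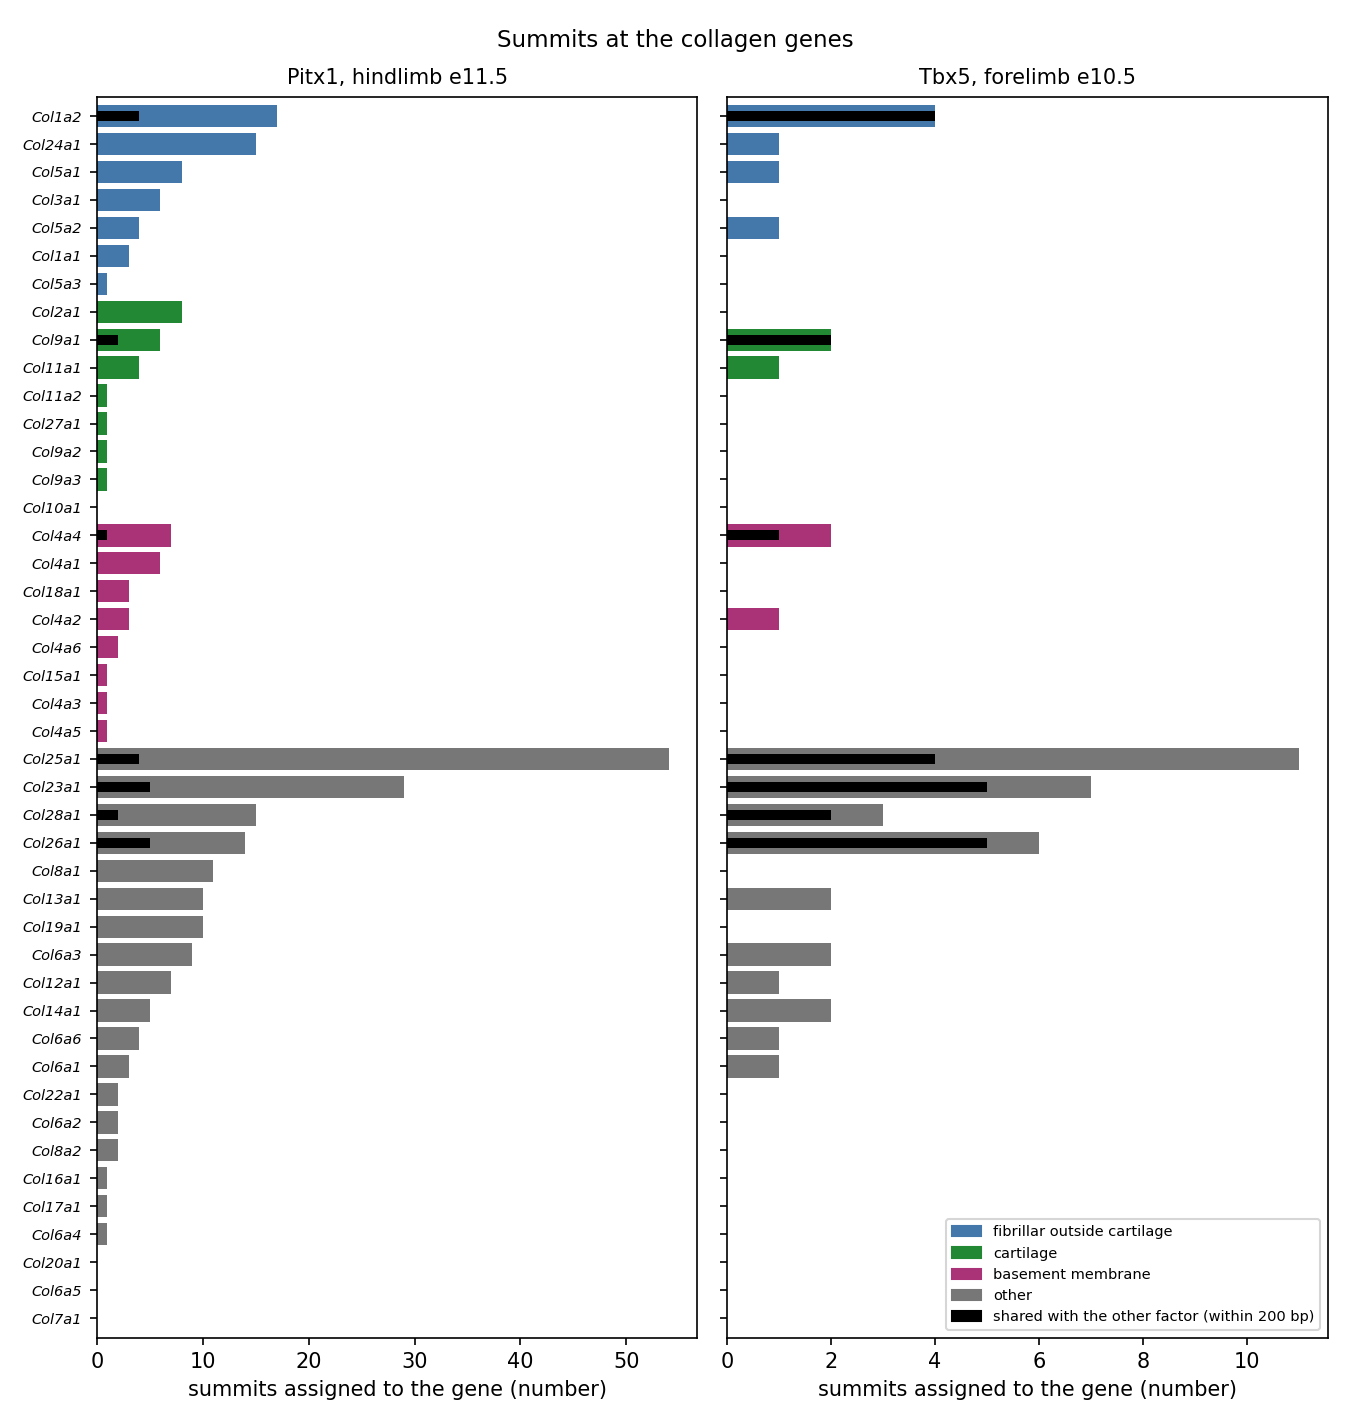
Number of Pitx1 summits (left) and Tbx5 summits (right) assigned to each of the 44 collagen genes, coloured by class, with the part that has a summit of the other factor within 200 bp in black. Col25a1 holds the most of both, 54 and 11, and no gene with a Tbx5 bar lacks a Pitx1 bar. Among all protein-coding genes, 3671 of the 4084 with Tbx5 also held Pitx1.

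The collagens were compared in 4 classes. The 7 fibrillar genes that act mainly outside cartilage all held Pitx1, 54 summits in all or 4.30 per 100 kb, and 4 of them held Tbx5, 7 summits or 0.558 per 100 kb. Of the 8 cartilage genes, 7 held Pitx1 (22 summits, 2.74 per 100 kb) and 2 held Tbx5 (3 summits, 0.373). All 8 basement membrane genes held Pitx1 (24 summits, 1.61 per 100 kb) and 2 held Tbx5 (3 summits, 0.201). Of the 21 other collagens, 18 held Pitx1 (180 summits, 4.43 per 100 kb) and 10 held Tbx5 (36 summits, 0.886).

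Set against all genes, the density ratios were 1.83, 1.17, 0.687 and 1.89 for Pitx1 in that order, and 1.34, 0.900, 0.486 and 2.14 for Tbx5. In these pooled densities basement membrane genes were the sparsest class for both factors, and the other collagens the densest. The second of these orders did not hold for single genes, whose median Pitx1 density was 3.99 per 100 kb in the fibrillar, 2.96 in the cartilage, 1.29 in the basement membrane and 2.73 in the other class. The median Tbx5 density was 0.293 in the fibrillar class and 0 in the rest. By that measure basement membrane genes were level with cartilage and the other collagens. With cartilage restricted to types IX and X the order changed, and that class was the densest, with 4.52 Pitx1 and 1.13 Tbx5 summits per 100 kb from 8 and 2 summits. Among Pitx1 summits at or above the list's median score the fibrillar class, at 2.39 per 100 kb, lay above the other collagens, at 2.34. The class values also rest on few genes. Without Col1a2 the fibrillar density fell to 3.40 for Pitx1 and 0.275 for Tbx5. Without its fullest gene the cartilage density was 1.85 for Pitx1 (Col2a1 left out) and 0.145 for Tbx5 (Col9a1 left out). Without Col4a4 the basement membrane density was 1.26 for Pitx1 and 0.0741 for Tbx5. The cartilage Tbx5 value of 0.145 lay below the 0.201 of the whole basement membrane class, but above its 0.0741 without Col4a4. Cartilage and basement membrane genes held only 3 Tbx5 summits each. Without genes on chromosome X the basement membrane class held 2.202 Pitx1 summits per 100 kb. That lay below the 2.74 of the whole cartilage class, but above the 1.85 of cartilage without Col2a1. Without Col25a1 that of the other collagens was 3.52 and 0.699. The Pitx1 value then lay below the 4.30 of the whole fibrillar class, but above the 3.40 of that class without Col1a2.

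**Figure D2:**
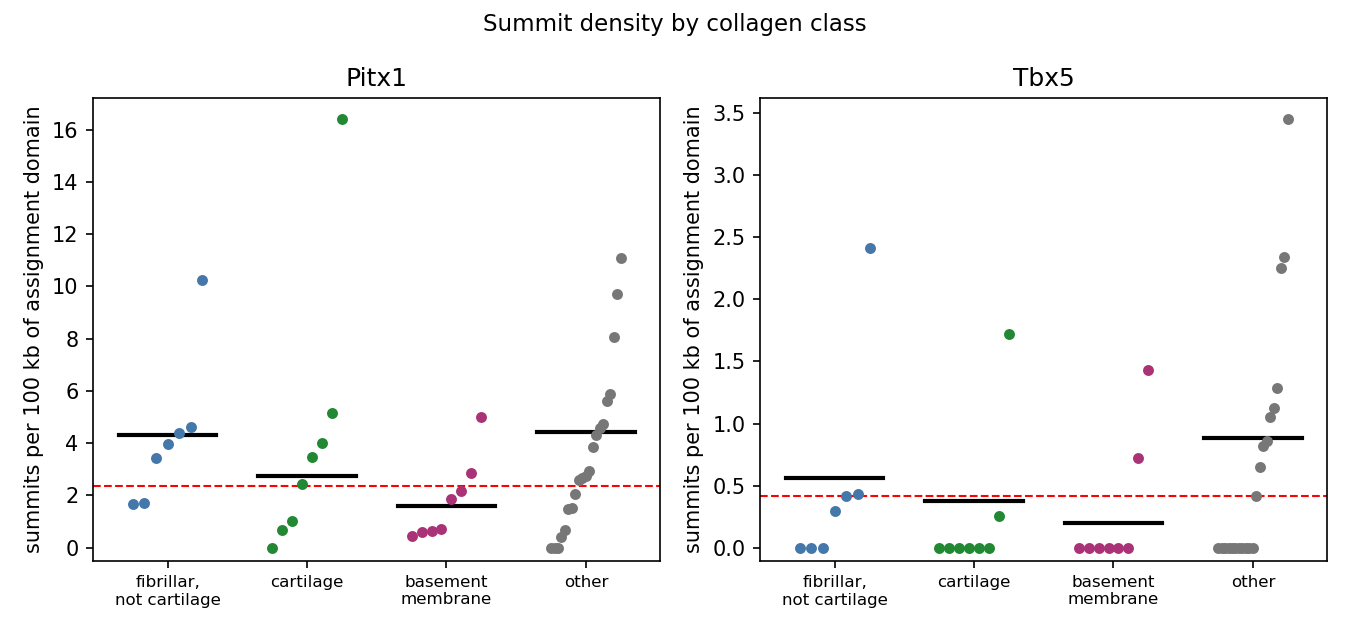
Summits per 100 kb of assignment domain for each collagen gene (points), with the pooled value of each class (black line) and of all protein-coding genes (red dashed line, 2.35 for Pitx1 and 0.415 for Tbx5). The classes overlap widely, and in each panel a few genes, such as Col2a1 for Pitx1 and Col26a1 for Tbx5, stand far above their class.

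Among the fibrillar collagens, Col1a2, which encodes the second chain of type I collagen (chromosome 6, 4505618 to 4541543), stood out. It held 17 Pitx1 summits, with scores from 3.35 through a median of 11.54 to 271, and 4 Tbx5 summits with scores of 4.67, 7.02, 59.6 and 886. The Pitx1 summits gave 10.3 per 100 kb, more than any other gene of its class, and the Tbx5 summits 2.42. Of the 17 Pitx1 summits, 1 lay inside the gene. The others lay on both sides of it, up to 88.3 kb before the start and 28.8 kb past the other end.

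All 4 Tbx5 summits of Col1a2 had a Pitx1 summit within 200 bp, the distance used here to call a site shared. The Tbx5 summit with a score of 886, rank 3 of the whole Tbx5 list, lay at chromosome 6 position 4557335, 15.8 kb past the 3′ end, and its Pitx1 partner 39 bp away scored 175. A second pair followed at 4563644, where the Tbx5 score was 59.6 and the Pitx1 score 57 bp away was 8.90. A further pair at 4561411 had scores of 7.02 and 14.4, 78 bp apart. The 3 Tbx5 summits lay within 6.31 kb of each other, and Casd1, the next gene, was 43.6 kb from the strongest. At the start of the gene, a Tbx5 summit with a score of 4.67 lay 0.335 kb upstream and a Pitx1 summit with a score of 18.9 lay 119 bp from it, at base 35 of the Col1a2 sequence above. In that sequence the AGGTGT letters begin at base 5, between the summits.

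The strongest Pitx1 site of Col1a2 had no Tbx5 counterpart. It scored 271 (rank 151 of the Pitx1 list) at position 4457745, 47.9 kb before the start, and the nearest Tbx5 summit was 47538 bp away. Col1a1, which encodes the first chain of the same protein, held 3 Pitx1 summits with scores of 2.89, 5.92 and 7.07 and no Tbx5 summit. Its domain of 65.0 kb was shorter than the 165.6 kb of Col1a2, and per 100 kb it held 4.62 Pitx1 summits. The partner chains of type I collagen therefore differed in both lists, and no test of that difference was possible with 1 sample each.

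The type V chains start the fibrils of type I collagen. Col5a2 held 1 Tbx5 summit, at chromosome 1 position 45460980 inside the gene, with a score of 218 (rank 92). The nearest Pitx1 summit was 41852 bp away, which made it the strongest collagen Tbx5 site without a Pitx1 partner. Its 4 Pitx1 summits scored 4.84, 5.92, 7.07 and 29.0. Col5a1 held 8 Pitx1 summits, the highest with a score of 61.9 at 48.1 kb before the gene, and 1 Tbx5 summit with a score of 17.0 inside it, 1802 bp from the nearest Pitx1 summit. Col5a3 held 1 Pitx1 summit with a score of 3.83.

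Col3a1, the neighbour of Col5a2 on chromosome 1 and the gene of the fibrillar collagen of soft tissues, held 6 Pitx1 summits and no Tbx5 summit. Its 6 scores ran from 5.92 to 20.5 with a median of 13.6, and all 6 lay within 19.6 kb around the start of the gene. No summit of either factor lay in the 24.6 kb between Col3a1 and Col5a2. Col24a1, a fibrillar collagen of developing bone, held 15 Pitx1 summits with a median score of 8.28. The highest scored 182 (rank 389) at chromosome 3 position 145386592 inside the gene. Its single Tbx5 summit scored 5.81, lay 2.65 kb outside the gene and had no Pitx1 summit within 21467 bp.

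**Figure D3:**
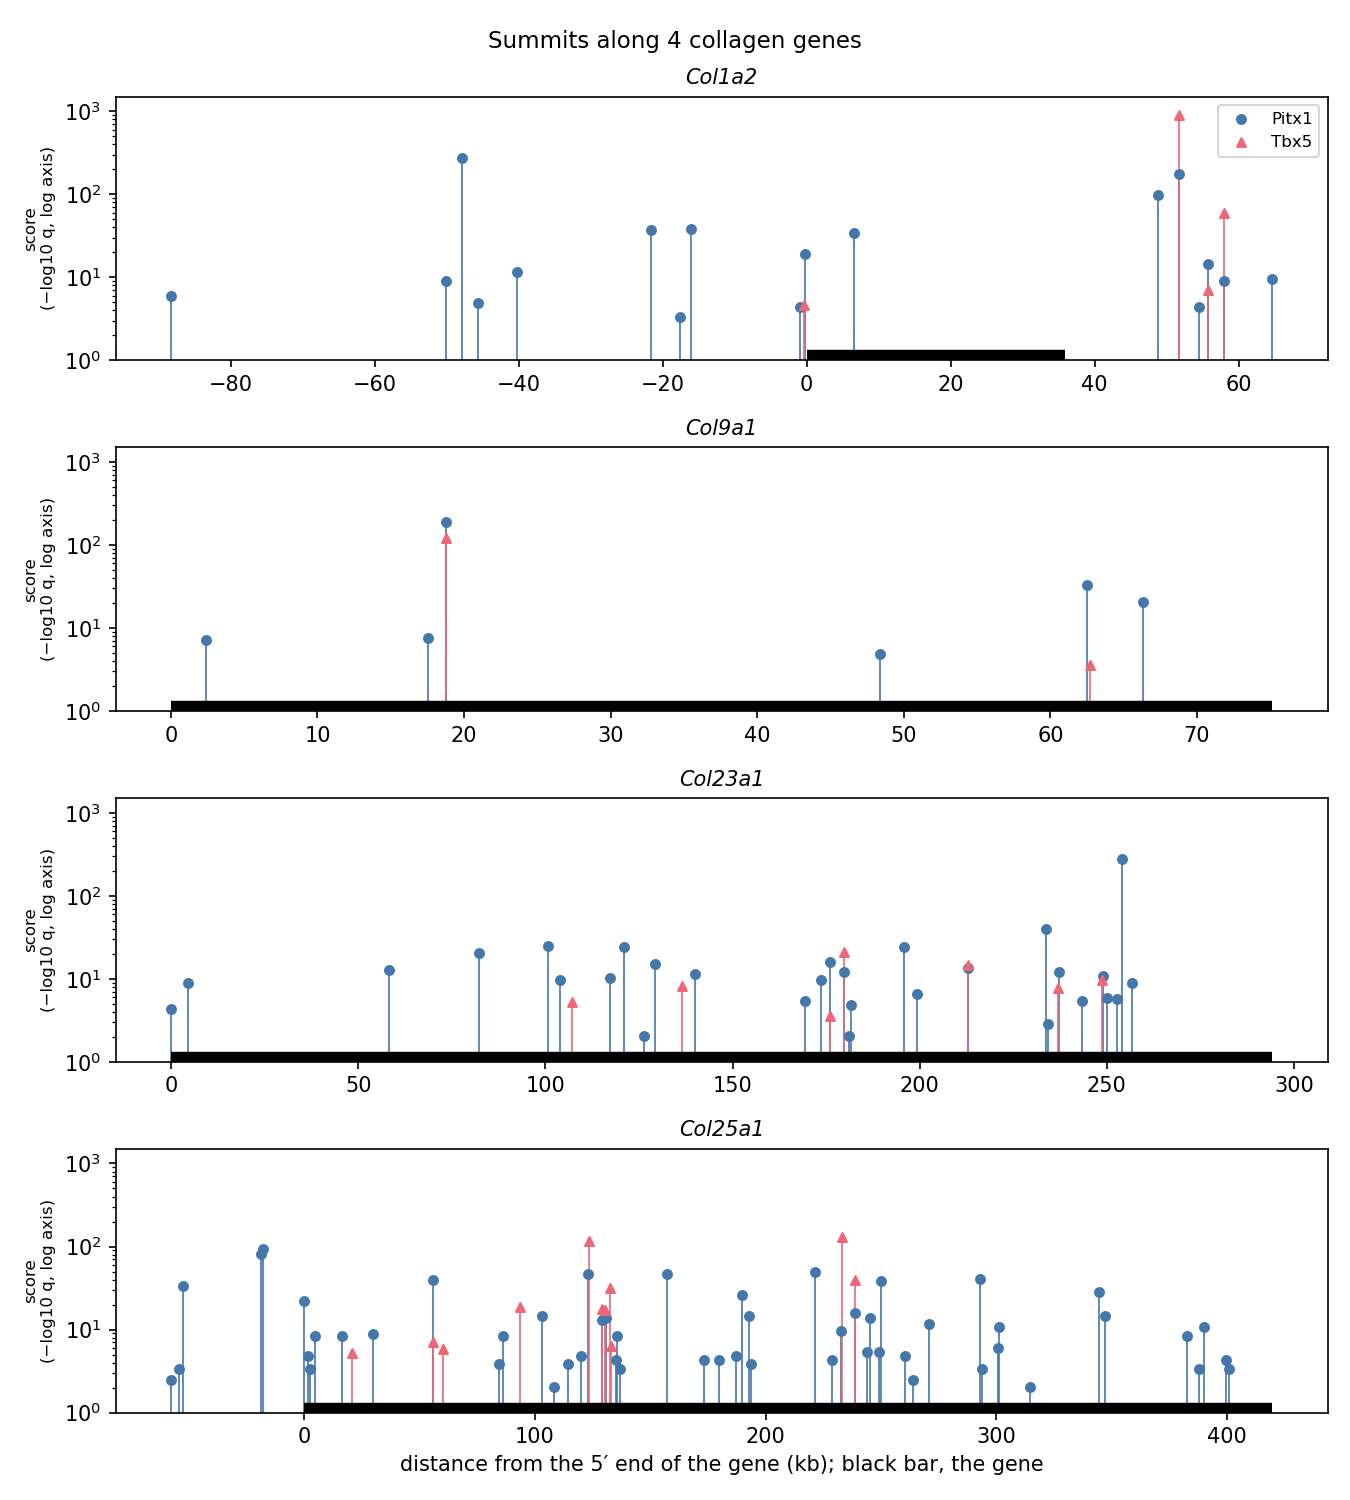
Score of each Pitx1 summit (circles) and Tbx5 summit (triangles) on a log axis against the distance in kb from the 5′ end of Col1a2, Col9a1, Col23a1 and Col25a1, with the gene as a black bar. At Col1a2 the strong sites lie outside the gene on both sides, while at the other 3 genes most lie inside.

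Among the cartilage collagens, Col9a1 carried the strongest shared site. The gene encodes a chain of type IX collagen, which coats the fibrils of type II, and has an internal start from which a shorter form is made. At chromosome 1 position 24196352 a Tbx5 summit scored 123 (rank 268), and 26 bp away a Pitx1 summit scored 187 (rank 360). The pair lay inside the gene, and the Tbx5 summit was 1149 bp past the internal start, whose upstream sequence is printed above. A second shared pair lay 172 bp apart, with a Tbx5 score of 3.60 and a Pitx1 score of 32.7 at position 24240117. The 6 Pitx1 summits of the gene scored from 4.84 to 187.

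Col2a1 codes for type II collagen, the chief fibril of cartilage. It held 8 Pitx1 summits and lacked Tbx5 summits. Over its 48.8 kb domain these gave 16.4 Pitx1 summits per 100 kb, the highest density of the 44 genes. Their scores ran from 2.45 through a median of 5.99 to 43.2, the last at chromosome 15 position 97990428 inside the gene, and 2 of the 8 were also in the authors' second, shorter Pitx1 list. Col11a1, whose chain starts the fibrils of cartilage, held 4 Pitx1 summits with scores of 3.83, 14.4, 23.0 and 27.3, the last in its promoter window. Its single Tbx5 summit scored 3.60 and was 53624 bp from the nearest Pitx1 summit. Col9a2, Col9a3, Col11a2 and Col27a1 held 1 Pitx1 summit each, with scores between 2.45 and 6.49, and no Tbx5 summit.

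The median Pitx1 score at basement membrane genes was 7.10, against 6.49 for all assigned summits. The type IV genes lie in head-to-head pairs. Col4a1 held 6 Pitx1 summits with a highest score of 17.4, and its partner Col4a2 held 3, with a highest score of 13.6, and 1 Tbx5 summit with a score of 3.10. Col4a4 held 7 Pitx1 summits, the highest with a score of 101 (rank 1214), and 2 Tbx5 summits with scores of 3.60 and 9.62, the latter paired over 93 bp with a Pitx1 summit scoring 17.4. Col4a3, its partner, held 1 Pitx1 summit with a score of 29.0. Col18a1 held 3 Pitx1 summits, with a highest score of 10.2, and Col15a1 held 1, with a score of 2.45.

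Col4a5 and Col4a6 lie on chromosome X, where both lists were sparse. Over all genes, Pitx1 summits numbered 0.592 per 100 kb on X and 2.51 on the autosomes, and Tbx5 summits 0.0133 and 0.450. Peaks carry running numbers, and on X 73.4% of the Pitx1 numbers but only 4.49% of the Tbx5 numbers were present in the lists. The absence of Tbx5 summits at these genes therefore says little. Col4a6 held 2 Pitx1 summits and Col4a5 held 1, with a score of 3.35, in the 1.27 kb between the genes. Without them the basement membrane class held 2.202 Pitx1 and 0.315 Tbx5 summits per 100 kb, both below the autosomal values.

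The other collagens held 180 of the 280 Pitx1 and 36 of the 49 Tbx5 summits. Col25a1, a membrane collagen needed for the innervation of skeletal muscle, held 54 Pitx1 summits, which ranked it 20 of all protein-coding genes, and 11 Tbx5 summits, rank 32. Its Pitx1 scores ran from 2.03 through a median of 8.28 to 92.9, and its Tbx5 scores from 5.23 through 17.8 to 131. Its domain was long, 487.7 kb, and the densities were 11.1 and 2.26 per 100 kb. The strongest Tbx5 summit lay at chromosome 3 position 130413358 inside the gene, 149 bp from a Pitx1 summit scoring 9.54. A group of 5 Tbx5 summits lay within 9.60 kb, between positions 130303827 and 130313430, with scores of 115, 17.8, 17.0, 31.9 and 6.40, and 1 of these was shared. The strongest Pitx1 summits of the gene, with scores of 81.1 and 92.9, lay 18.7 and 17.8 kb before it, where no Tbx5 summit was found within 38752 bp.

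Col25a1 also had shared sites with scores for Tbx5 and Pitx1 of 39.6 and 15.8 (32 bp apart), 17.8 and 12.9 (150 bp) and 7.02 and 39.3 (41 bp). In all, 4 of its 11 Tbx5 summits were shared. The site with the Tbx5 score of 115 missed the distance used, with a Pitx1 summit of score 46.2 lying 345 bp away.

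Col23a1, a further membrane collagen, held 29 Pitx1 and 7 Tbx5 summits, all but 1 inside the gene. Its Pitx1 scores ran from 2.03 through a median of 10.2 to 274 (rank 147), the last at chromosome 11 position 51543837, 5335 bp from the nearest Tbx5 summit. Its Tbx5 scores ran from 3.60 through 8.29 to 21.1. Of the 7 Tbx5 summits 5 were shared, at distances of 26 to 89 bp, with Pitx1 scores of 10.9 to 15.8. Shared sites were thus frequent at Col23a1 but weak beside its strongest Pitx1 site. Col13a1, a membrane collagen of the neuromuscular synapse, held 10 Pitx1 summits with a highest score of 13.6. Its 2 Tbx5 summits scored 8.95 and 32.8 and lay 10129 and 13464 bp from the nearest Pitx1 summit.

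Col26a1 held the highest Tbx5 density of the collagens, 3.45 per 100 kb, with 6 Tbx5 summits in a domain of 174.0 kb. Of these 5 were shared, at distances of 25 to 92 bp. The strongest Tbx5 summit scored 148 (rank 187) at chromosome 5 position 136771380, beside a Pitx1 summit of 8.28. At 136811100 the order was the reverse, with a Tbx5 score of 58.5 and a Pitx1 score of 145 (rank 641). The 3 further shared sites had Tbx5 scores of 11.002, 4.13 and 33.8 and Pitx1 scores of 34.5, 10.9 and 21.3. The 14 Pitx1 summits of Col26a1 had a median score of 11.2, and of the peak numbers they span 60.9% were in the list, against 96.4% at Col25a1 and 70.7% at Col23a1. Over the whole Pitx1 list 77.8% of the numbers were present. Of the 5 shared sites, that at 136771380 had the Tbx5 score above 98.2% of its list and the Pitx1 score above 55.6% of its own. At 136811100 the values were 92.7% and 98.8%.

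Col28a1, a beaded collagen found around peripheral nerves, held 15 Pitx1 summits with a highest score of 57.6 and 3 Tbx5 summits. The Tbx5 summit with a score of 12.4 was shared with a Pitx1 summit of 29.0, and that with 4.13 lay 4 bp from a Pitx1 summit of 9.54. The Tbx5 summit with 11.7 was not shared. Col8a1, a network-forming collagen of vessel walls and of the cornea, held the strongest Pitx1 site of all collagens, with a score of 418 (rank 41) at chromosome 16 position 57694939 inside the gene. It had 11 Pitx1 summits, all inside it, whose median score was 11.54, and no Tbx5 summit.

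Of the collagens associated with fibrils, Col19a1 held 10 Pitx1 summits, all inside it, the highest with a score of 215 (rank 251), and no Tbx5 summit. Col14a1 held 5, the highest with a score of 158 (rank 539), and 2 Tbx5 summits with scores of 3.60 and 4.67. Col12a1 held 7, the highest with a score of 69.6 at 28.9 kb outside the gene, and 1 Tbx5 summit with a score of 7.64. None of the Tbx5 summits of Col14a1 and Col12a1 was shared. Col22a1, also of this kind and with the longest domain of the collagens at 488.9 kb, held 2 Pitx1 summits with a highest score of 3.83.

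The chains of the type VI genes form beaded filaments around cells. Col6a3 held 9 Pitx1 summits, the highest with a score of 133 (rank 747), and 2 Tbx5 summits with scores of 8.95 and 9.62, the latter 261 bp from a Pitx1 summit. Col6a1 held 3 Pitx1 summits, the highest with a score of 40.2, and a Tbx5 summit of 5.81 that lay 525 bp from it. Col6a6 held 4 Pitx1 summits and a Tbx5 summit of 6.40. Per 100 kb, the Pitx1 densities of Col6a3, Col6a1, Col6a2 and Col6a6 were 4.75, 3.86, 2.73 and 2.60, all above that of all genes. Those of Col6a4 and Col6a5 were 0.674 and 0, both below that of all genes. Col6a2 held 2 Pitx1 summits, Col6a4 held 1 and Col6a5 none, and none of the 3 held Tbx5. Of the remaining collagens, Col8a2 held 2 Pitx1 summits with a highest score of 9.54, and Col16a1 and Col17a1 held 1 each with a score of 3.83. Col17a1 is, like Col25a1, Col23a1 and Col13a1, anchored in the cell membrane.

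Sites shared by both factors were found at 7 of the 44 collagen genes, against 8.79% of all genes. That share was not matched for domain length, and collagen domains are longer. Of the 49 collagen Tbx5 summits 23 were shared, 46.9% (exact Clopper-Pearson 95% interval 32.5 to 61.7), and the share of all Tbx5 summits was 39.5%, which lies inside the interval. Of the 280 collagen Pitx1 summits 23 were shared, 8.21% (5.28 to 12.1), against 7.39% of all. Sharing at collagens was therefore not distinguishable from that of the whole lists at this number of summits. Intervals cover the counting of summits only. The 7 genes were Col1a2, Col9a1, Col4a4, Col23a1, Col25a1, Col26a1 and Col28a1.

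The shared sites had higher median scores. The median Tbx5 score was 12.4 (quartiles 7.02 and 49.1) for the 23 shared and 7.02 (5.23 and 15.7) for the 26 not shared summits, and the median Pitx1 score was 15.8 for the shared and 6.49 for the 257 not shared. The quartiles overlapped for both factors. The median gap within a shared pair was 78 bp. A further 5 collagen Tbx5 summits (10.2%) had a Pitx1 summit within 1 kb, 11 had one 1 to 10 kb away, and 10 had none within 10 kb. The median distance from a collagen Tbx5 summit to a Pitx1 summit was 261 bp, and 540 bp for all Tbx5 summits.

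**Figure D4:**
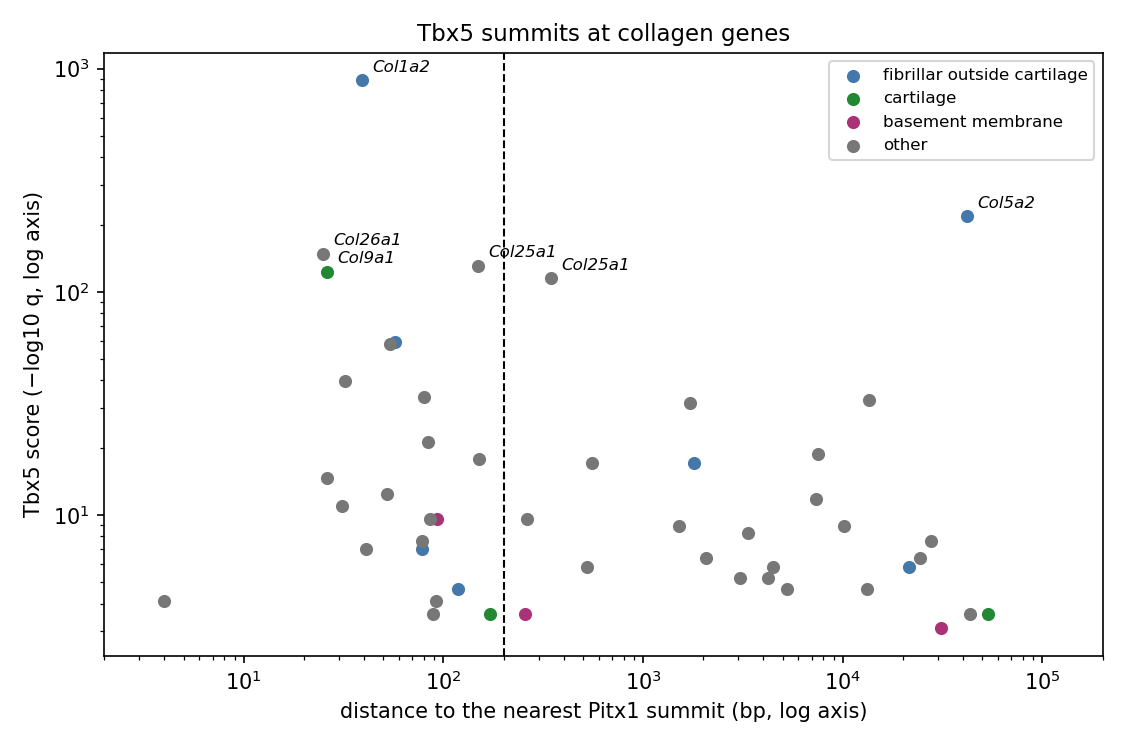
Score of each of the 49 collagen Tbx5 summits against its distance to the nearest Pitx1 summit, both on log axes and coloured by class, with the 200 bp limit for a shared site as a dashed line. Of the 6 summits with a score of 100 or more, 4 lie left of the line, 1 of Col25a1 lies at 345 bp and that of Col5a2 at 41852 bp.

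High scores were reached at collagens for both factors. Tbx5 scores of 100 or more were reached by 6 of the 49 summits (12.2%), and by 3.57% of the whole Tbx5 list. For Pitx1 it was 11 of 280 (3.93%), and 2.31% of the whole list. The medians were closer, at 8.95 for collagen Tbx5 summits against 8.29 for all assigned ones, and at 7.97 for Pitx1 against 6.49. The authors' second Pitx1 list held 107 of the 280 (38.2%, exact interval 32.5 to 44.2), against 30.9% of all assigned Pitx1 summits and 32.4% of the whole list.

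Collagen sites lay mostly inside genes. Of the Pitx1 summits at collagens, 72.9% (exact interval 67.2 to 78.0) were inside a gene and over 1 kb from its ends, against 52.5% of those at all genes, and for Tbx5 the shares were 81.6% (68.0 to 91.2) and 55.6%. Within 1 kb of a gene end lay 7.14% (4.42 to 10.8) of the Pitx1 summits, against 16.0%, and 1 of the 49 Tbx5 summits, the one before Col1a2. Collagen genes are long, with a median of 114.4 kb against 17.2 kb for all genes, and median domains of 152.1 and 45.1 kb. A domain with more gene body offers more bases inside a gene. The share of the domains that is gene body was not computed, and its part in these contrasts was not tested. Counting every summit inside a gene, also near its ends, the share of Pitx1 summits was 76.4% for collagens and 60.6% for all genes. By class it was 86.4% (65.1 to 97.1) for cartilage, 83.3% (62.6 to 95.3) for basement membrane and 83.3% (77.1 to 88.5) for the other collagens. For the fibrillar class it was 46.3% (32.6 to 60.4), which rests in part on Col1a2. Without that gene 24 of 37 lay inside, or 64.9% (47.5 to 79.8), still below the other classes but with an interval overlapping theirs. Median gene lengths and domains were 45.1 and 165.6 kb in the fibrillar and 28.4 and 44.8 kb in the cartilage class. They were 135.8 and 164.7 kb in the basement membrane and 122.2 and 174.0 kb in the other class. The part of these lengths in the class shares was not tested.

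The genes that make, process, bind and break down collagen were counted beside the collagens. Of 44 such genes 36 held Pitx1 and 16 held Tbx5, against 54.5% and 18.7% of all genes, with a median domain of 73.0 kb. Their densities were 2.81 and 0.458 per 100 kb, or 1.199 and 1.103 times those of all genes. Of 14 enzymes and chaperones of collagen making, 11 held Pitx1 and 4 held Tbx5, and of 13 genes of processing and crosslinking 12 and 5. Of 7 receptors 6 held Pitx1 and 4 Tbx5, of 4 small proteoglycans 3 and 2, and of 6 collagen-cleaving proteases 4 and 1.

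The genes of this group named here had the most Pitx1 summits or a Tbx5 score at or above the list median. A high Pitx1 score alone did not lead to naming, so these are not all of the strongest Pitx1 sites. P3h2, a prolyl hydroxylase, held 9 Pitx1 and 2 Tbx5 summits with highest scores of 74.2 and 106 (rank 335). Itga11, an integrin chain that binds fibrillar collagen, held 7 and 1, with 215 and 21.1. Tll1, a protease that trims procollagens, held 9 and 1, with 58.7 and 8.29. Dcn, which encodes decorin, held 6 and 2, with 56.5 and 4.67, and Plod2, a lysyl hydroxylase, held 6 Pitx1 summits with a highest score of 39.3. Tll2, a relative of Tll1, also held 6 Pitx1 summits, with a highest score of 17.4, and 1 Tbx5 summit with a score of 2.61. Serpinh1, the chaperone of procollagen, held 4 and 2, the latter with a highest score of 16.2 and none of them shared. Other genes whose Tbx5 scores reached the median of the Tbx5 list were Itga1 (27.2), Ddr1 (26.3), Pcolce2 (22.8), Colgalt2 (14.7), Bmp1 (14.7) and Ctsk (11.7), each from the highest summit of the gene.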

How the data were processed

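Summits of 2 ChIP-seq samples were used. Per the submitters' processing notes HOMER, MACS2 2.1.1.20160309, Bowtie2 2.2.6 and Bowtie 1.1.2 were used, in roles not stated, and the build was mm10. The deposited scores were read as −log10 of the q-value, which MACS2 writes to summit files. Control, depth and later filters were not given in the sources used here. The second Pitx1 list, a subset of 17783 summits of the first, was an alternative. Its own score column was not used.

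Summits were assigned to the nearest protein-coding gene within 100 kb, and to the shorter gene where genes overlap. Domains were computed by the same rule. With 1 sample per factor no test was run. Counts, medians and exact Clopper-Pearson 95% intervals are given beside all genes or summits. The assignment was tested on simulated data. Python 3.11.15, pandas 2.3.3 and scipy 1.17.1 were used.

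The collagen genes, classes and further lists were chosen with earlier results of these data known. Named were collagen genes with a Tbx5 summit, the 10 with most Pitx1 summits, the 10 with the highest Pitx1 scores, all shared sites and the genes with no summit. Of the genes acting on collagen, those with a Tbx5 score at or above the list median and the 5 with most Pitx1 summits, with ties for the fifth place, were named. Further collagens were named after their values were seen, to account for every member.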

Additional observations from a re-analysis of the deposited data

How the results depend on the processing

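Of 77 values recomputed under other settings, 55 stayed within 1.5 times the count, or within the counting interval of the density or share. No paired analysis was possible because each factor has 1 sample. Assignment within 20 or 50 kb kept all values in that range. Counting every collagen gene within 100 kb gave Tbx5 to 30 genes and Pitx1 to all 44. For these and the gene counts below, the share of all genes under the same setting was not computed. With scores at or above the list median there were 149 Pitx1 and 27 Tbx5 summits, 11 genes with Tbx5 and 15 shared Tbx5 summits. The Pitx1 densities were then 2.39 (fibrillar), 1.49 (cartilage), 0.806 (basement membrane) and 2.34 (other) per 100 kb, and the Tbx5 density of the other collagens 0.517. This removes summits by construction, and the ratios to all genes were 1.68 and 1.69. The Pitx1 list cut to the length of the Tbx5 list gave 58 summits, 20 genes, 8 shared sites and a ratio of 1.83. The second Pitx1 list gave 107 summits, 14 shared sites and a ratio of 1.94. Sharing within 100, 500 and 1000 bp gave 19, 26 and 28 shared Tbx5 summits. With classes by structure, cartilage held only types IX and X, with 4.52 Pitx1 and 1.13 Tbx5 summits per 100 kb from 8 and 2 summits. Leaving out Col25a1 gave 3.52 Pitx1 summits per 100 kb for the other collagens and, in an alternative chosen after seeing the data, a Pitx1 ratio of 1.35. Also chosen then were the autosomes alone (ratios of 1.56 and 1.54), the basement membrane class without X and the fibrillar share inside genes without Col1a2. Unknown depth and single samples limit every value.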

Other observations

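Both lists skip peak numbers, also along the collagen genes. Between the first and the last Pitx1 summit of Col25a1, 54 of 56 numbers were present (96.4%), at Col1a2 17 of 18 (94.4%), at Col23a1 29 of 41 (70.7%) and at Col26a1 14 of 23 (60.9%). For Tbx5 all 11 numbers were present at Col25a1, all 7 at Col23a1 and all 4 at Col1a2, and 6 of 8 at Col26a1. What removed the other peaks was not given in the sources used here. Over the whole lists 77.8% of the Pitx1 and 60.4% of the Tbx5 numbers were present. For Pitx1, Col23a1 and Col26a1 thus lay below the share of the list, and Col25a1 and Col1a2 above it. For Tbx5 these genes all lay above the share of the list. The part of this in the counts was not tested.

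Neighbouring collagen genes differed in their counts. Col9a1 and Col19a1 lie 4.94 kb apart on chromosome 1 with 6 and 10 Pitx1 summits and 2 and no Tbx5 summits. Per 100 kb of domain the Pitx1 order was the reverse, 5.16 at Col9a1 and 2.65 at Col19a1. The type VI genes Col6a6, Col6a5 and Col6a4 lie in a row on chromosome 9 with 4, none and 1 Pitx1 summits.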
